A study of Mus musculus with 64 samples.

Results

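The genes described here code for the enzymes that make serine and that carry one-carbon units on folate. They are the 10 genes Phgdh, Psat1, Psph, Shmt1, Shmt2, Mthfd1, Mthfd2, Mthfd1l, Aldh1l1 and Aldh1l2, found by their numeric gene ID among the 36332 distinct IDs of the deposited table. They were chosen by name, with earlier results of these data known, and each of the 10 had a row.

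Cells make serine from the glycolytic intermediate 3-phosphoglycerate through PHGDH, PSAT1 and PSPH, which act in that order. The hydroxymethyltransferases SHMT1 (cytosol) and SHMT2 (mitochondria) split serine into glycine and a one-carbon unit held by tetrahydrofolate. MTHFD1 interconverts the folate forms in the cytosol. MTHFD2 and MTHFD1L carry the unit to formate in mitochondria, and ALDH1L1 (cytosol) and ALDH1L2 (mitochondria) oxidise formyl-tetrahydrofolate to carbon dioxide. One-carbon units are used to make purines, thymidylate and methionine. Several of these genes are known targets of the transcription factors MYC and ATF4.

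The study sequenced RNA of omental adipose tissue, liver and skeletal muscle from mice at 5 and 20 months of age, in which Myc had been deleted throughout the body (KO) or was intact (WT). The strain label of KO mice names a cross of Gt(ROSA)26Sortm1(cre/ERT2)Tyj, a tamoxifen-activated Cre recombinase expressed from the ROSA26 locus, with Myctm2Fwa, a Myc allele that Cre can excise. WT mice are labelled C57/B6, a label that names no Cre, so strain and loss of Myc cannot be told apart. Both genotypes are labelled as given 5 daily doses of tamoxifen (75 mg/Kg) around weaning, at a weight of 15 g or more. Per genotype, 6 young and 5 old libraries were made from adipose tissue and the same from liver. Muscle had the same numbers but for 4 young KO libraries, which gave 64 libraries in 12 groups. Libraries are named here by their codes, which begin with K for KO or W for WT and hold F for adipose tissue, L for liver and S for muscle. Codes of the older mice hold 18 where the age label reads 20 months, and 20 months is used. The labels do not say that each library of a group is a separate animal, and p-values measure only the spread between these libraries.

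Libraries held between 15449409 and 28500633 reads on genes. Levels are given as CPM, a deposited value that is not scaled to reads on genes alone. For the same share of reads it was lower in adipose tissue than in liver or muscle. The 8 adipocyte, 8 hepatocyte and 8 skeletal muscle markers were all detected in the tissue of their name, and each list summed highest there. In 4 young adipose libraries, transcripts of the epididymis, a duct of the male reproductive tract, were present. The 8 gonad and epididymis markers summed to 6246 CPM in K5F4284, 4011 in K5F5248, 962 in K5F5218 and 919 in W5F5299, and the young muscle library W5S5299 held 126. Most of the sum was Crisp1 (5461, 3295, 821.5 and 791 CPM in those 4) and Adam7 (625, 652.5, 134.5 and 127). Lcn5 was at 144.5 CPM in K5F4284, 52.96 in K5F5248, 0.03185 in K5F5218 and 0 in W5F5299, Lcn9 was at 0 in all 12 young adipose libraries, Lcn8 reached 0.0729, and Rnase10 was highest outside the 4 (0.715 in W5F5042). Xist, an RNA of female cells, was expressed in 12 libraries, 2 in each young group and none at 20 months, so age and sex were partly confounded. Myc was lower in young KO than young WT adipose tissue (2.87 to 10.5 against 11.2 to 22.8 CPM, log2 difference -1.52, SE 0.246, adjusted p = 0.017). In young liver it was also lower (1.16 to 4.04 against 5.46 to 33.7 CPM, log2 difference -2.38, SE 0.302, adjusted p = 0.00093). Myc did not pass the test at 20 months in adipose tissue (-0.63, adjusted p = 1) or liver (-1.16, adjusted p = 0.547), though the old liver groups did not overlap. In muscle KO and WT overlapped at both ages, with adjusted p of 1 (young) and 0.663 (old).

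The promoters of 4 members are shown. Phgdh and Psat1 differed most between adipose tissue and liver toward adipose tissue, and Shmt1 and Aldh1l1 differed most between liver and muscle toward liver. Each sequence is the 250 bases before a RefSeq transcription start (assembly GRCm38.p6), 5′ to 3′ on the strand of the gene. The end of each of the 4 windows lies in an annotated transcript, so motifs near it may be in transcribed sequence. The Aldh1l1 window runs past the listed start of its gene (90550768). Capitals mark the CCAAT box (CCAAT, or ATTGG for the other strand) and the GC box (GGGCGG or CCGCCC). The windows lie at chr3:98339970-98340219 on the minus strand (Phgdh), chr19:15925060-15925309 on the minus strand (Psat1), chr11:60811266-60811515 on the minus strand (Shmt1) and chr6:90550543-90550792 on the plus strand (Aldh1l1).
Phgdh: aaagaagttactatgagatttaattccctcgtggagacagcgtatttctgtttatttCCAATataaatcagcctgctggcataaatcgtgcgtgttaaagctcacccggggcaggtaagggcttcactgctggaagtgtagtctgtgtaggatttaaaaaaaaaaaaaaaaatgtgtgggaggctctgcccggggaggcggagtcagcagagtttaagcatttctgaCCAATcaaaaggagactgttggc
Psat1: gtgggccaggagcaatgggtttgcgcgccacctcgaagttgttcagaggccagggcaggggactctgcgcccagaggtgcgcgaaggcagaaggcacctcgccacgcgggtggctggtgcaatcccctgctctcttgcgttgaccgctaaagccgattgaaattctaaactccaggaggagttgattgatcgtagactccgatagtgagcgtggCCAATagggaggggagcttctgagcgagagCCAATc
Shmt1: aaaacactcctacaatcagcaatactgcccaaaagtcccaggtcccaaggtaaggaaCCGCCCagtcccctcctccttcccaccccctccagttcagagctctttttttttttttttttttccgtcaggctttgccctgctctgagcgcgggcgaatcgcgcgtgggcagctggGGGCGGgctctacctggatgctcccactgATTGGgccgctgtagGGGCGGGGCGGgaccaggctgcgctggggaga
Aldh1l1: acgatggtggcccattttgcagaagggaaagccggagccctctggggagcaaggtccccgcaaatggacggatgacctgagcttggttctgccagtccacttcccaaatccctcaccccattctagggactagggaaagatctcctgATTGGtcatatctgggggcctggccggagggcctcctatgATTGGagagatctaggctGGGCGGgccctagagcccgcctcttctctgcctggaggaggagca

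A CCAAT box was found in each of these 4 windows. Of the 4, Shmt1 held a GC box at 4 places (the last 2 overlap) and Aldh1l1 at 1. Over 32851 mouse promoter windows of this length, 33.8% held a CCAAT box and 32.7% a GC box. Starts were listed for 9 members, in 10 windows since Psat1 has a further start, and none for Aldh1l2. The window of that further Psat1 start held a GC box at -11 and no CCAAT box. GC boxes were also in the windows of Psph and Mthfd1l, which were not called between adipose tissue and liver, and of Mthfd1, which was higher in liver. Neither the E-box CACGTG, bound by MYC with MAX and present in 6.02% of all windows, nor TGATGNAA (either strand), the element of ATF4 with C/EBP proteins, present in 3.45%, was found in the 10 windows. The Shmt2 window held none of these 4 motifs. A match describes the letters and is not a site, and motifs outside the windows were not searched.

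The first enzymes of serine synthesis were high in adipose tissue. Phgdh, whose product draws 3-phosphoglycerate into the pathway, was at 85.5, 198 and 629 CPM (lowest, median and highest of 6) in young WT adipose tissue. In muscle it was at 1.23, 2.54 and 4.802 CPM and in liver at 0.176, 0.347 and 0.954. The 3 tissues did not overlap in these libraries, nor over all 64. On the log2(CPM + 1) scale, where changes close to 0 CPM come out smaller than they are, the adipose-to-liver difference was 7.13 (SE 0.427, adjusted p = 1.34e-11). The adipose-to-muscle difference of Phgdh was 5.82 (SE 0.427, adjusted p = 4.06e-10), and liver lay below muscle (-1.31, adjusted p = 0.00979). Psat1, the aminotransferase of the next step, was at 27.7, 76.4 and 136 CPM in young WT adipose tissue. It was at 1.31, 3.39 and 13.4 CPM in muscle and 0.265, 0.457 and 0.9485 in liver. All 22 adipose libraries of the study lay above all liver and muscle libraries. Its difference from adipose tissue to liver was 5.37 (SE 0.441, adjusted p = 1.61e-09) and to muscle 3.70 (SE 0.441, adjusted p = 3.83e-07). Psph, the phosphatase that releases serine, did not share this order: its means were 8.55 ± 4.525 CPM in adipose tissue, 7.375 ± 1.74 in muscle and 5.35 ± 1.435 in liver (SD, n = 6 each). No tissue pair was called for Psph, and its adipose-to-liver difference was 0.47 (adjusted p = 0.12) with a 95% interval of -0.08 to 1.03. That difference passed the threshold without the Xist libraries (0.82, adjusted p = 0.0153) and without W5F5041 alone (0.67, adjusted p = 0.0215). The exons of Psph share 452 bases with Cct6a on the other strand, and whether the counting used strand is not given in the sources used here.

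Both hydroxymethyltransferases were highest in liver. Shmt1 was at 147, 185 and 219 CPM in young WT liver, 2.99, 4.63 and 5.01 in adipose tissue and 3.27, 5.63 and 7.83 in muscle. Shmt2 was at 227.5, 289.8 and 362 CPM in liver, 35.9, 39.2 and 50.9 in muscle and 14.4, 17.04 and 24.5 in adipose tissue. Liver was separated from the other tissues without overlap for both genes, and for Shmt2 muscle was also separated from adipose tissue. Reads of Shmt2 overlapped between young WT adipose tissue (349 to 648) and muscle (497 to 742), so that separation depends on how libraries are scaled. The liver-to-muscle difference was 4.82 (SE 0.175, adjusted p = 2.1e-15) for Shmt1. For Shmt2 it was 2.80 (SE 0.143, adjusted p = 5.13e-13). From adipose tissue to muscle Shmt2 differed by -1.15 (adjusted p = 6.44e-07), while Shmt1 missed the threshold with limma (-0.33, adjusted p = 0.107) and passed it with edgeR (-0.52, adjusted p = 0.0261) and DESeq2 (-0.51, adjusted p = 0.0221), with TMM scaling (-0.41, adjusted p = 0.0394) and without W5S5299 (-0.44, adjusted p = 0.0231).

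The cytosolic enzymes downstream were also highest in liver. Mthfd1, the trifunctional enzyme, averaged 284.5 ± 19.2 CPM in liver, 43.1 ± 4.5 in muscle and 24.1 ± 5.896 in adipose tissue (SD, n = 6 each), and its tissues did not overlap in any library of the study. Its differences were -3.54 (SE 0.135, adjusted p = 8.62e-15) from adipose tissue to liver and -0.84 (adjusted p = 1.69e-05) from adipose tissue to muscle. Reads of Mthfd1 overlapped between young WT adipose tissue (419 to 952) and muscle (487 to 723), so the latter difference rests on how libraries are scaled. Aldh1l1, which removes one-carbon units as carbon dioxide, was at 811, 1419 and 2336 CPM in liver, 87.7, 158.5 and 326 in adipose tissue and 5.66, 13.15 and 38.9 in muscle. The young WT tissues did not overlap. The Aldh1l1 differences were -3.04 (SE 0.387, adjusted p = 8.78e-07) from adipose tissue to liver and 3.50 (SE 0.387, adjusted p = 1.37e-07) from adipose tissue to muscle.

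The mitochondrial enzymes other than SHMT2 each had an order of their own. Mthfd2, the dehydrogenase and cyclohydrolase that follows SHMT2, was lowest in liver, with a mean of 1.23 ± 0.647 CPM against 9.19 ± 4.09 in adipose tissue and 8.31 ± 1.69 in muscle (SD, n = 6 each), and liver did not overlap with either. Its adipose-to-liver difference was 2.14 (SE 0.241, adjusted p = 1.56e-07), and the adipose-to-muscle difference had a 95% interval of -0.45 to 0.56. Aldh1l2 was highest in muscle, at 2.87, 6.04 and 6.56 CPM against 0.426, 0.646 and 3.165 in adipose tissue. In liver its highest young WT library was at 0.517 CPM and 2 of 6 had 0 reads, which allows up to 0.2498 CPM in W5L5005 and 0.219 in W5L5041 by counting error alone. Muscle and liver did not overlap for Aldh1l2 (liver minus muscle -2.30, SE 0.243, adjusted p = 4.78e-08). Its exons share 1056 bases with D10Wsu102e on the other strand.

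Mthfd1l, which makes formate in mitochondria, averaged 4.62 ± 3.81 CPM in adipose tissue, 4.61 ± 3.62 in liver and 1.46 ± 0.734 in the muscle libraries, with overlap between the tissues. It was called between adipose tissue and muscle (1.02, SE 0.393, adjusted p = 0.0275) and between liver and muscle (1.01, SE 0.393, adjusted p = 0.0265). Both calls depended on single libraries. The first was lost without W5F5006 (0.90, adjusted p = 0.0626), W5F5299 (0.74, adjusted p = 0.0803), W5S5004 (0.96, adjusted p = 0.0513), W5S5007 (0.94, adjusted p = 0.056) or W5S5277 (0.92, adjusted p = 0.0583), and without W5F5299 and W5S5299 together (0.79, adjusted p = 0.0834). The second was lost without W5L5277 (0.86, adjusted p = 0.0664), W5L5299 (0.75, adjusted p = 0.0791), W5S5007 (0.93, adjusted p = 0.0544) or W5S5277 (0.91, adjusted p = 0.0573). With no filter on low values the adjusted p was 0.0519 and 0.0536.

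**Figure D1:**
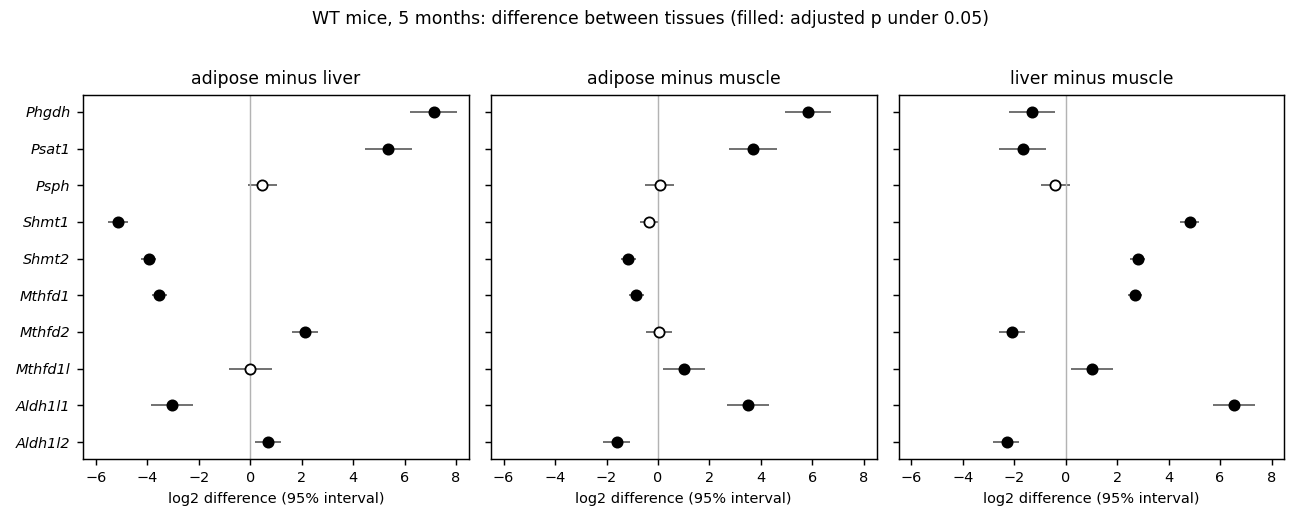
Log2 differences of the 10 members between tissues in WT mice of 5 months (x axis, log2(CPM + 1) scale; points are estimates, lines 95% intervals, n = 6 libraries per tissue; filled points passed an adjusted p of 0.05). Phgdh and Psat1 lie furthest to the adipose side (7.13 and 5.37 against liver), and Shmt1, Shmt2, Mthfd1 and Aldh1l1 lie on the liver side.

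Between adipose tissue and liver 8 of 10 members were called, 4 higher and 4 lower in adipose tissue, against 69.7% of all tested genes. Between adipose tissue and muscle 7 were called (68.9% of all genes) and between liver and muscle 9 (73.1%). These shares were near those of all genes. The count without overlap was 7, 5 and 8 of 10 for the 3 pairs, against 48.2%, 48.8% and 56.2% of all genes. The median log2 difference of the 10 was 0.24, 0.06 and 0.30, and that of all tested genes 0.03, 0.15 and -0.01.

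**Figure D2:**
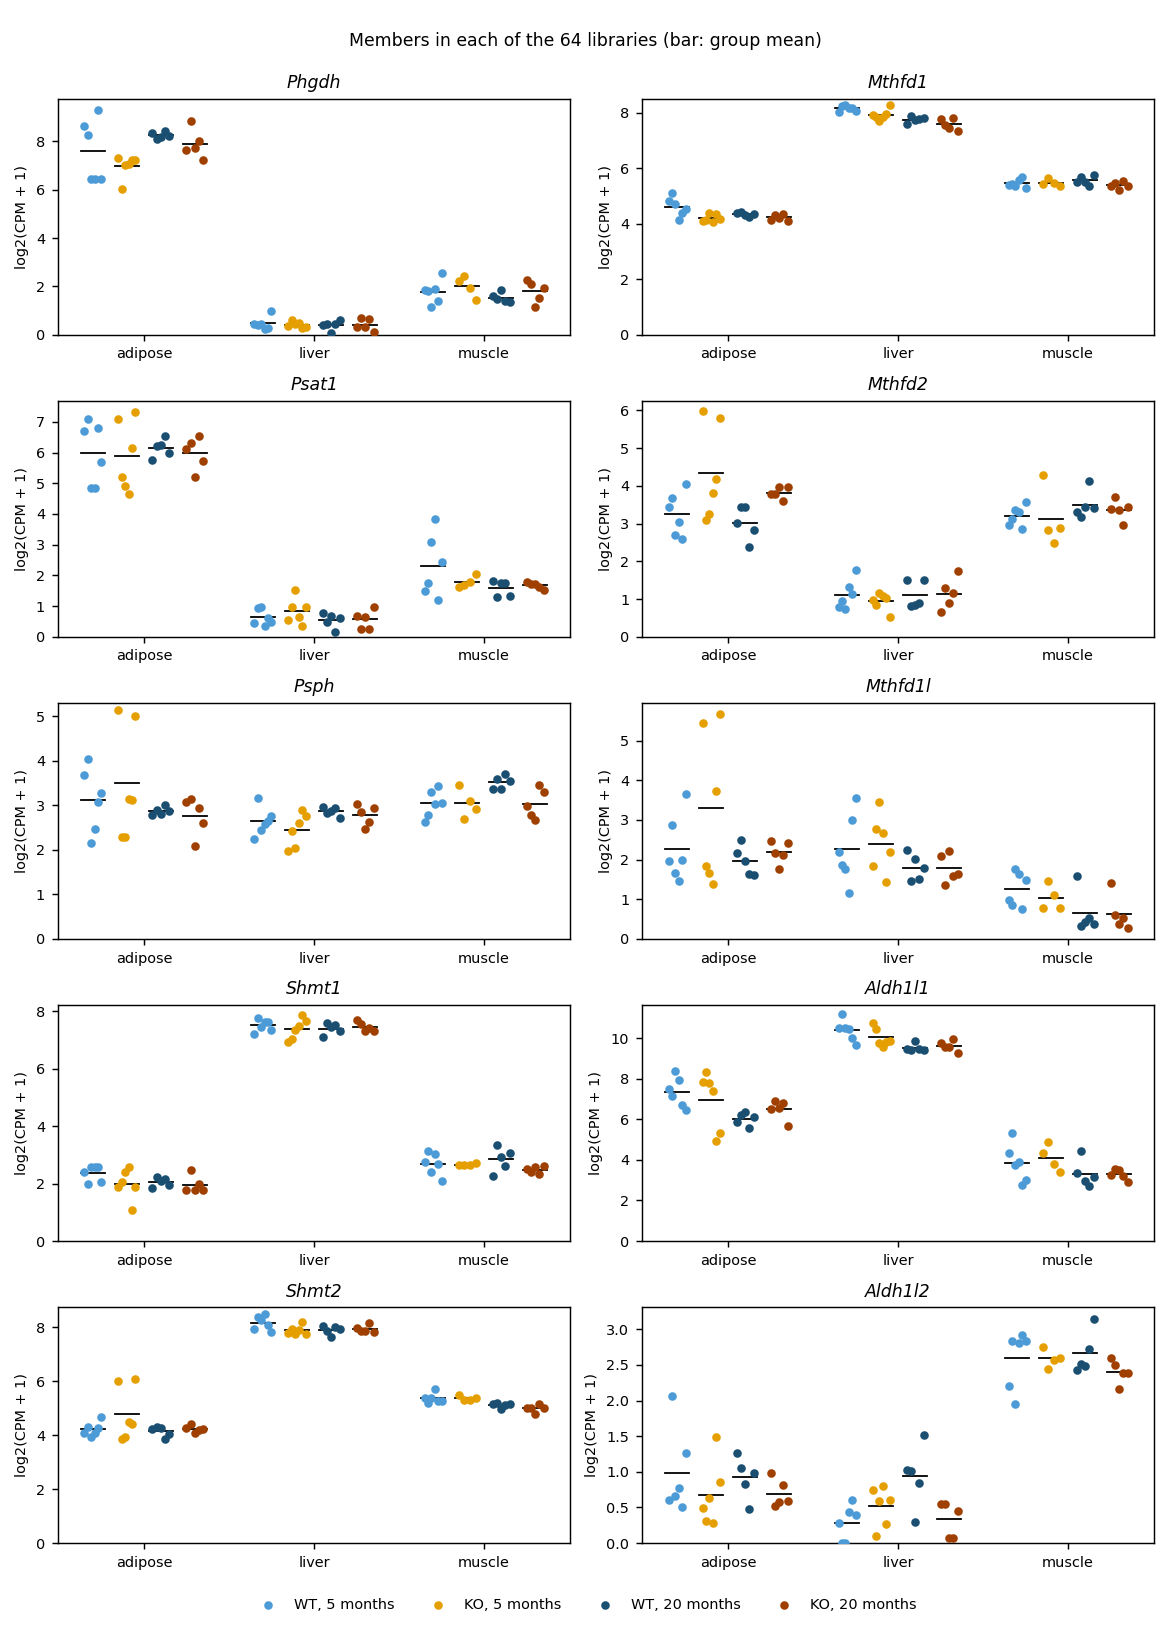
Level of each member in each of the 64 libraries (y axis, log2(CPM + 1)) by tissue, with colour for genotype and age; points are libraries and bars are group means. The 3 tissues form separate bands for Phgdh and Mthfd1, and the 2 highest young KO adipose points of Psph, Shmt2, Mthfd2 and Mthfd1l are K5F4284 and K5F5248.

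Levels of different genes were compared per kilobase of exon. In young WT liver Aldh1l1 was highest (338 ± 125 CPM per kilobase), then Shmt2 (126 ± 23.3), Mthfd1 (87.8 ± 5.92) and Shmt1 (63.9 ± 9.23; SD, n = 6). In adipose tissue the order began with Phgdh at 141 ± 118 CPM per kilobase, then Aldh1l1 at 43.1 ± 21.7 and Psat1 at 25.85 ± 15.8. The last 2 were closer than their spread. In muscle Shmt2 (17.6 ± 2.36) and Mthfd1 (13.3 ± 1.39) led, and the next were Psph (4.26 ± 1.003), Mthfd2 (3.99 ± 0.813) and Aldh1l1 (3.89 ± 2.91).

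The balance of mitochondrial to cytosolic enzyme, as a ratio of CPM per kilobase, also varied by tissue. Shmt2 to Shmt1 was 1.32, 1.77 and 2.39 (lowest, median and highest of 22) in liver. It was 3.61, 6.84 and 30.6 in adipose tissue and 4.81, 8.74 and 14.2 in the 20 muscle libraries, so no liver library reached either. Aldh1l2 to Aldh1l1 ran from 0.1085 to 0.794 in muscle and reached at most 0.0428 in adipose tissue and 0.001845 in liver. Mthfd1l to Mthfd1 ran from 0.0649 to 2.26 in adipose tissue and reached at most 0.0365 in liver and 0.0452 in muscle. The highest adipose value of each ratio was in young KO, a group that includes libraries with epididymis transcripts. In old adipose tissue Shmt2 to Shmt1 reached at most 9.42, Aldh1l2 to Aldh1l1 0.0169 and Mthfd1l to Mthfd1 0.210.

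No member was called between KO and WT in limma in any tissue at either age. In liver Phgdh, Psat1 and Aldh1l2 did not pass the filter (more than 1 CPM in 0, 1 and 3 of 22 libraries), and the other 7 were tested. In adipose tissue 0 of 10 members were called at 5 months (0.105% of all tested genes) and 0 at 20 months (0%). In liver 0 of 7 were called at 5 months (0.0696% of all genes) and 0 at 20 months (0.0232%). In muscle 0 of 10 were called at 5 months (0% of all genes) and 0 at 20 months (0.0302%). At an unadjusted p under 0.05 there were 2 members in young adipose tissue, 2 in young liver, 1 in old muscle and 0 in the others. Of all tested genes, 1692 of 14286 had such a p in young adipose tissue, 897 of 12924 in young liver and 1821 of 13237 in old muscle. In old adipose tissue 321 of 14286 did, in old liver 750 of 12924 and in young muscle 543 of 13237. edgeR called 0 members in these 6 comparisons and DESeq2 called 1, Mthfd2 in young adipose tissue (2.13% of all genes there). The difference between the KO effects at the 2 ages was called for 0 members in each tissue, as for 0% of all genes, with 0 at an unadjusted p under 0.05 and 0 by edgeR and DESeq2. Of all genes, 407 of 14286 (adipose tissue), 507 of 12924 (liver) and 438 of 13237 (muscle) had an unadjusted p under 0.05 for it. In old liver 0 of 7 members separated KO from WT without overlap (2.46% of all genes).

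The 95% intervals give the size of difference these comparisons leave possible. In young muscle the KO difference of Shmt2 lay between -0.20 and 0.20 and that of Mthfd1 between -0.19 and 0.22 on the log2 scale. In young adipose tissue Phgdh had an interval of -1.50 to 0.26. The members past an unadjusted p of 0.05 in young liver were Shmt2 (237 ± 28 CPM in KO, 291 ± 53.7 in WT; -0.28, adjusted p = 0.623) and Mthfd1 (243 ± 33.7 in KO, 284.5 ± 19.2 in WT; -0.24, adjusted p = 0.642). In young adipose tissue Mthfd1 averaged 17.4 ± 1.805 CPM in KO and 24.1 ± 5.896 in WT (-0.42, adjusted p = 0.225; -0.53, adjusted p = 0.0383 without the Xist libraries). In old muscle Psph was at 6.89, 5.84, 5.315, 9.98 and 8.804 CPM in KO and 9.27, 11.1, 9.28, 12.05 and 10.7 in WT, with overlap (-0.48, adjusted p = 0.305).

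**Figure D3:**
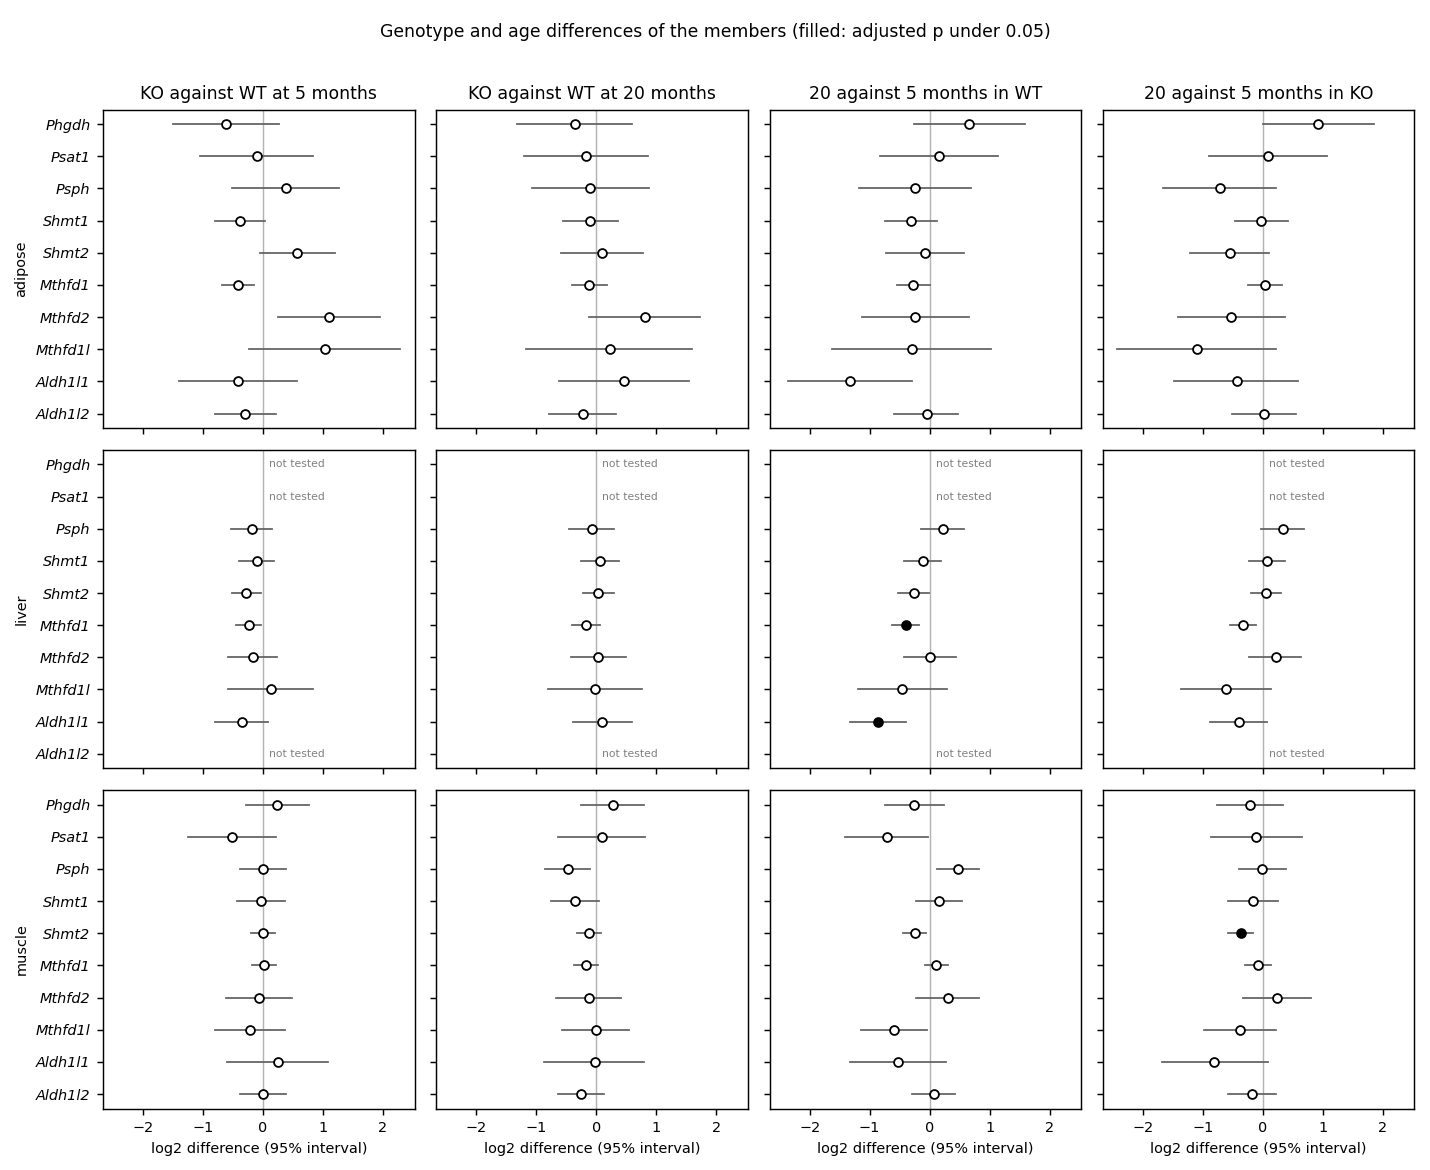
Genotype and age differences of the members in adipose tissue, liver and muscle (x axis, log2 difference; points are estimates, lines 95% intervals, n = 4 to 6 libraries per group; filled points passed an adjusted p of 0.05). The filled points are Mthfd1 (-0.40) and Aldh1l1 (-0.86) in WT liver by age and Shmt2 (-0.37) in KO muscle by age.

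In young adipose tissue Mthfd1l, Mthfd2, Shmt2 and Psph were high in libraries with epididymis transcripts. Mthfd1l was at 42.6 CPM in K5F4284, 50.2 in K5F5248, 12.4 in K5F5218 and 11.7 in W5F5299, and at 1.602 to 6.295 in the other 8 young adipose libraries. Mthfd2 was at 62.04, 54.3, 17.3 and 15.6 CPM in the same libraries, and at 5.03 to 13.1 in the 8. Neither gene overlapped between the 4 and the 8 libraries. Shmt2 was at 62.6 CPM in K5F4284 and 66.97 in K5F5248, against 13.4 to 21.3 in the 8, and Psph at 34.05 and 31.25 against 3.42 to 15.5. In K5F5218 and W5F5299, with lower marker sums, Shmt2 was at 20.3 and 24.5 CPM and Psph at 7.68 and 8.725. The cytosolic Shmt1 (1.115 to 3.17 CPM in the 4) and Mthfd1 (16.15 to 22.25) were not high there. Psat1, also cytosolic, was at a median of 102.5 CPM in the 4 (50.8 to 159) and 32.6 in the 8 (24.4 to 136), with overlap. In bulk samples, fewer cells of a type and less RNA per cell cannot be told apart.

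**Figure D4:**
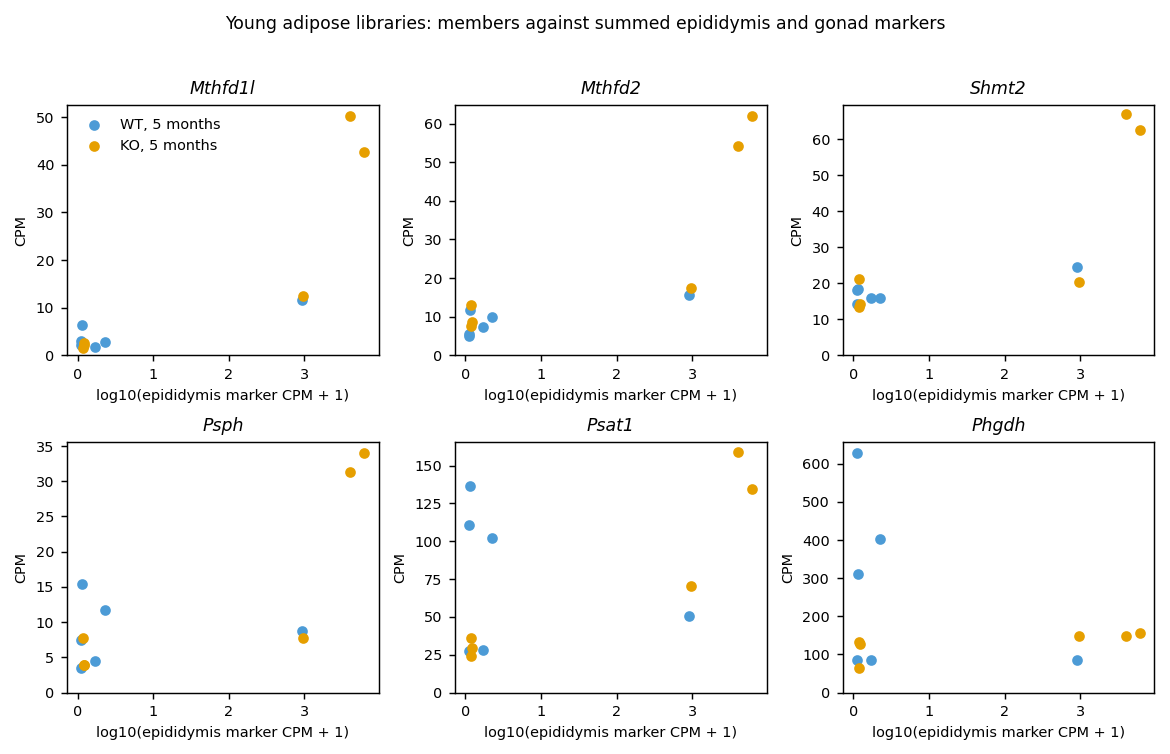
Levels of 6 members (y axis, CPM) in the 12 young adipose libraries against the summed epididymis and gonad markers (x axis, log10(CPM + 1)); points are libraries, coloured by genotype. K5F4284 and K5F5248, at the right, have the highest Mthfd1l, Mthfd2, Shmt2 and Psph, while the highest Phgdh (629 CPM) is in a library without these markers.

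In young adipose tissue the KO-to-WT difference of Mthfd2 was 1.10 (SE 0.408, adjusted p = 0.334) with limma and 1.63 (adjusted p = 0.0238) with DESeq2. Without the 4 libraries it was 0.29 (adjusted p = 0.673), and limma called 0 members beside 0.125% of all genes. The Mthfd1l difference was 1.03 (adjusted p = 0.51) with limma and 2.07 (adjusted p = 0.0581) with DESeq2 over all libraries, and with limma -0.36 (adjusted p = 0.599) without the 4. At 20 months no adipose library summed to more than 0.492 CPM of these markers. There Mthfd2 was at 12.7, 12.8, 14.7, 11.1 and 14.8 CPM in KO and 7.095, 9.86, 9.83, 4.19 and 6.06 in WT. The old groups did not overlap, as for 1.29% of all tested genes, and the difference did not pass the test (0.81, SE 0.447, adjusted p = 1).

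Phgdh and Psat1 differed widely among the young WT adipose libraries. Phgdh was at 403, 309.6 and 629 CPM in W5F5005, W5F5006 and W5F5277, and at 85.9, 85.5 and 86.04 in W5F5041, W5F5042 and W5F5299. Psat1 divided the same libraries, at 102, 136 and 110.4 CPM in the first 3 and 27.7, 28.02 and 50.8 in the others. Of the 3 low libraries, 2 expressed Xist and W5F5299 held epididymis markers. The part of sex or of other tissue in this spread was not tested. In the young KO libraries Phgdh ran from 64.1 to 156 CPM, with the Xist libraries at 127 and 133. Over the 18 adipose libraries without epididymis markers, log2 levels of Phgdh and Psat1 had a Pearson r of 0.828. The r of Psat1 with Psph was 0.756 and that of Phgdh with Aldh1l1 -0.606. These points share tissue and scaling and mix ages and genotypes.

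With age, 3 of the members that passed the filter on low values changed in a limma comparison, and each was lower at 20 months. In WT liver 2 of 7 tested members were called, against 7.19% of all tested genes. Mthfd1 was at 260.4, 285 and 311 CPM (lowest, median and highest of 6) in young WT liver and at 190, 236, 210.2, 217 and 222 in old. The groups did not overlap, as for 4.95% of all tested genes, and the difference was -0.40 (SE 0.106, adjusted p = 0.0246). Aldh1l1 was at 811, 1419 and 2336 CPM in young WT liver and 712, 682, 914.5, 704 and 687 in old. These groups overlapped, since the old W18L03 lay above the young W5L5299 (811). The Aldh1l1 difference was -0.86 (SE 0.227, adjusted p = 0.025).

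Both liver calls were near the threshold. Without the Xist libraries the differences were -0.37 (adjusted p = 0.0964) for Mthfd1 and -0.81 (adjusted p = 0.0913) for Aldh1l1. With sex as a term they were -0.42 (adjusted p = 0.0292) and -0.93 (adjusted p = 0.0229). The Mthfd1 call was lost without W18L01 (-0.36, adjusted p = 0.0587), W18L03 (-0.40, adjusted p = 0.0541) or W5L5041 (-0.38, adjusted p = 0.0542). The Aldh1l1 call was lost without W18L02 (-0.83, adjusted p = 0.0629), W18L04 (-0.84, adjusted p = 0.0546), W18L05 (-0.84, adjusted p = 0.0629) or W5L5042 (-0.85, adjusted p = 0.051).

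In KO liver 0 of 7 members were called with age (2.99% of all genes), 0 by edgeR (2.75%) and 0 by DESeq2 (6.02%). At an unadjusted p under 0.05 there was 1 member, beside 2484 of all 12924 genes. Mthfd1 was at 207, 234 and 306 CPM in young and 218, 189, 172, 225 and 159.9 in old KO liver (-0.33, SE 0.106, adjusted p = 0.0871). Aldh1l1 was at 750, 915 and 1692 CPM in young and 872, 746, 756, 1007 and 615 in old KO liver (-0.40, SE 0.227, adjusted p = 0.337). The ages overlapped for both genes, and 0 of 7 members separated them (3.84% of all genes). The test of the difference between the genotypes' age effects gave 0.07 for Mthfd1 (95% interval -0.24 to 0.38) and 0.46 for Aldh1l1 (-0.21 to 1.12), with adjusted p of 0.991 for both. Aldh1l2, which did not pass the filter in liver, was at 0 to 0.517 CPM in young WT liver (0 to 7 reads) and 1.04, 1.02, 0.223, 0.801 and 1.85 in old (4 to 25 reads), with overlap. In the limma fit with no filter it was higher in old WT liver, by 0.65 (SE 0.175, adjusted p = 0.0457), and passed the threshold there. In KO liver that fit gave -0.18 (adjusted p = 0.677), and for the difference between the age effects -0.83 (adjusted p = 0.927). Phgdh and Psat1 were not called in liver in that fit, with adjusted p from 0.555 to 1.

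In muscle the member called with age was Shmt2 in KO. It was at 43.6, 38.6, 38.9 and 40.2 CPM in young and 31.4, 31.3, 26.7, 34.3 and 31.1 in old KO muscle. The groups did not overlap, which held for 2 of 10 members (Shmt1 and Shmt2) and 15.8% of all tested genes. Shmt2 differed by -0.37 (SE 0.1, adjusted p = 0.0344) and was the 1 member of 10 called, against 5.57% of all genes. The call was lost with sex as a term (-0.31, adjusted p = 0.125), without the Xist libraries (-0.40, adjusted p = 0.0709) and without K18S61 (-0.38, adjusted p = 0.0645), K18S62 (-0.32, adjusted p = 0.0684), K18S64 (-0.38, adjusted p = 0.0671), K5S4284 (-0.34, adjusted p = 0.121), K5S4285 (-0.39, adjusted p = 0.0577), K5S5116 (-0.39, adjusted p = 0.065) or K5S5118 (-0.37, adjusted p = 0.0753).

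In WT muscle Shmt2 was at 35.9, 39.2 and 50.9 CPM (lowest, median and highest of 6) in young and 34.2, 35.8, 30.3, 33.9 and 34.6 in old mice. The lowest young and highest old values nearly met without overlapping, which held for 1 member and 5.27% of all genes. The difference was -0.25 (SE 0.0902, adjusted p = 0.0565) with limma, -0.30, adjusted p = 0.0247 with edgeR and -0.31 (adjusted p = 0.00964) with DESeq2. It also passed with TMM scaling (-0.29, adjusted p = 0.0292), without K18S62 (-0.25, adjusted p = 0.0472) and without W5S5277 (-0.27, adjusted p = 0.0364). The age effects of the genotypes on Shmt2 had a difference of -0.12 (95% interval -0.40 to 0.16). In WT muscle limma called 0 of 10 members (18.6% of all genes) and 4 had an unadjusted p under 0.05 (4654 of all 13237 genes). These were Shmt2, Psat1, Psph (0.47, adjusted p = 0.0581) and Mthfd1l (-0.59, adjusted p = 0.109). edgeR and DESeq2 each called 2, Shmt2 and Psat1, beside 18.6% and 23.3% of all genes. Psat1 was at 7.47 CPM in W5S5041 and 13.4 in W5S5042, both Xist libraries, and at 1.796, 2.34, 1.31 and 4.44 in the other young WT muscles. The old WT muscles were at 2.503, 1.455, 2.38, 2.35 and 1.52. The Psat1 difference was -0.71 (adjusted p = 0.131) with limma and -1.37 (adjusted p = 0.0137) with DESeq2. Without W5S5277 limma called Psat1 (-0.93, adjusted p = 0.0299) and Psph (0.55, adjusted p = 0.0218), and without W18S41 Mthfd1l (-0.83, adjusted p = 0.0189).

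In WT adipose tissue Aldh1l1 was the member with the lowest p for age. It was at 87.7, 158.5 and 326 CPM (lowest, median and highest of 6) in young WT and 56.9, 72.7, 80.2, 46.8 and 67.98 in old WT adipose tissue. The WT ages did not overlap, which held for 1 member and 11.7% of all genes. The difference was -1.33 (SE 0.498, adjusted p = 0.0835) with limma, -1.48, adjusted p = 0.0455 with edgeR and -1.49 (adjusted p = 0.0107) with DESeq2. With limma 0 of 10 members were called in WT (10.8% of all genes) and 1 had an unadjusted p under 0.05 (4347 of all 14286 genes). edgeR and DESeq2 each called 1 (11.9% and 18.9% of all genes). limma called it without K5F5218 (-1.33, adjusted p = 0.037) and without W5F5299 (-1.51, adjusted p = 0.0498). In KO, Aldh1l1 was at 225, 321, 218.5, 167, 29.05 and 39.4 CPM in young and 91.2, 116.5, 92.3, 112 and 49.05 in old adipose tissue, with overlap (-0.44, adjusted p = 0.559). The lowest young KO values were in K5F5218 and K5F5248, which hold epididymis markers, while K5F4284, with the highest marker sum, had the second highest value.

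With limma 0 of 10 members were called with age in KO adipose tissue (14.2% of all genes), and 0 separated the ages (5.09% of all genes). At an unadjusted p under 0.05 there was 1 member (Phgdh, 0.92, adjusted p = 0.155), beside 4603 of all 14286 genes. Mthfd1l passed with edgeR (-2.44, adjusted p = 0.0368), without the Xist libraries (-1.99, adjusted p = 0.0207) and with sex as a term (-1.72, adjusted p = 0.038). edgeR called 1 member (15.8% of all genes) and DESeq2 3 (23.1% of all genes). With DESeq2 these were Mthfd1l (-2.46, adjusted p = 0.00388), Psph (-1.40, adjusted p = 0.0276) and Shmt2 (-0.99, adjusted p = 0.0248). The median of all genes in that comparison was 0.06 with limma, -0.05 with edgeR and -0.07 with DESeq2. Without the 4 libraries with epididymis markers the Mthfd1l difference was 0.56 (adjusted p = 0.151), where limma with all libraries gave -1.10 (adjusted p = 0.236). Psph went from -0.72 (adjusted p = 0.274) to 0.21 (adjusted p = 0.697) and Shmt2 from -0.55 (adjusted p = 0.228) to 0.15 (adjusted p = 0.492), so the sign of all 3 turned.

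Without those 4 libraries Aldh1l1 was lower at 20 months in both genotypes, with differences of -1.51 (adjusted p = 0.00268) in WT and -1.35 (adjusted p = 0.017) in KO. It was then the 1 member called in each, against 24.3% of all genes in WT and 17.9% in KO. Without the Xist libraries the WT difference was -0.93 (adjusted p = 0.299), and with sex as a term -0.97 (adjusted p = 0.217), both with the 4 libraries kept. In KO these fits gave -0.12 (adjusted p = 0.896) and -0.08 (adjusted p = 0.926). Without the 4 libraries young KO holds 3 libraries (K5F4285, K5F5116 and K5F5118), 2 of them with Xist, and young WT holds 5, also 2 with Xist, against none in the old groups, and the part of sex in these differences was not tested. The Xist libraries W5F5041 (326 CPM) and W5F5042 (243.5) were the highest in young WT. The 8 adipocyte markers summed to 25891 to 42778 CPM in young and 15966 to 22929 in old WT adipose tissue, and to 13617 to 46682 and 15983 to 27076 in KO. The 8 hepatocyte markers summed to 484 to 4892 CPM in young and 155.5 to 551 in old WT adipose tissue, and to 1244 to 3841 and 111.5 to 1484 in KO, with none of the 8 at 0 throughout a group. Their part in the Aldh1l1 difference was not tested.

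**Figure D5:**
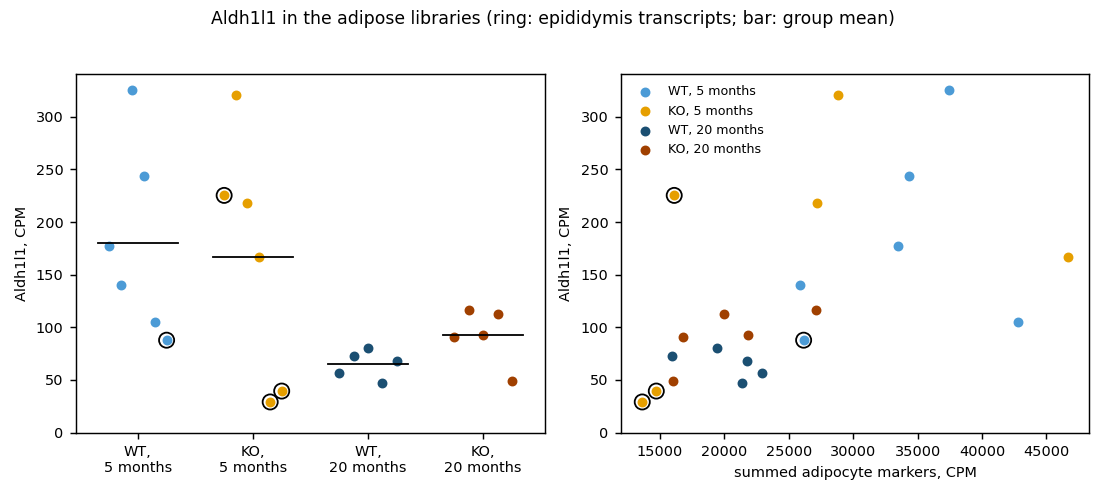
Aldh1l1 (y axis, CPM) in the 22 adipose libraries, on the left by group with bars at group means and on the right against the summed adipocyte markers (x axis, CPM); rings mark the 4 libraries with epididymis transcripts. All 6 young WT points lie above the old WT points, which run from 46.8 to 80.2 CPM.

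Genes next to the pathway were read from 4 lists: serine and glycine handling (18 genes), folate enzymes and transport (16), the methionine cycle and transsulfuration (16), and ATF4 with the integrated stress response (20). Between KO and WT, limma called 0 genes of these lists in 376 tests over the 6 comparisons (30 had an unadjusted p under 0.05), edgeR called 0 and DESeq2 4. Per comparison, limma called 0% to 0.105% of all genes, edgeR 0% to 0.063% and DESeq2 0.0378% to 2.13%. The counts of all genes at an unadjusted p under 0.05 are given above for the same 6 comparisons. In young WT mice, liver exceeded adipose tissue for 14 of 18 serine and glycine genes (3 were lower in liver), 8 of 16 folate genes (4 lower) and 11 of 16 methionine cycle genes (2 lower). Of all 14087 tested genes 4799 were higher and 5024 lower in liver (69.7% called). For 19 tested ATF4 list genes the split was 4 higher and 11 lower in liver. The adipose-to-liver list medians were -2.86, -0.89, -3.87 and 1.26, against 0.03 for all genes.

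With age in WT liver, 2 of 18 serine and glycine genes, 2 of 15 tested folate genes and 3 of 16 methionine cycle genes were called, all lower, beside 7.19% of all genes (563 lower and 366 higher). Sds and Sdsl, serine dehydratases of amino acid breakdown, fell from 460.3 ± 130.4 to 157 ± 37.2 CPM (-1.52, adjusted p = 0.0234) and from 74.9 ± 34.98 to 17.9 ± 3.17 CPM (-1.85, adjusted p = 0.0138; SD, n = 6 and 5). Gnmt, which uses S-adenosylmethionine to methylate glycine, fell from 2584 ± 1176 to 1068 ± 218 CPM (-1.20, adjusted p = 0.00593). Nnmt, which uses it to methylate nicotinamide, fell from 466 ± 178 to 117 ± 32.2 CPM (-1.91, adjusted p = 0.00413). Of the folate genes, Mthfs (-0.41, adjusted p = 0.0413) and the carrier Slc19a1 (-0.72, adjusted p = 0.0496) fell. The medians of the 3 lists were -0.06, -0.01 and -0.21, against -0.01 for all genes. Of 19 ATF4 list genes, Gdf15, a stress-induced hormone, rose (1.36, adjusted p = 0.0393), and Eif4ebp1 (-1.03, adjusted p = 0.00128) and Ddit4 (-1.79, adjusted p = 0.0328) fell.

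With age in adipose tissue, 2 of 15 tested serine and glycine genes (both lower), 1 of 15 methionine cycle genes (lower) and 2 of 20 ATF4 list genes (1 in each direction) were called in WT, beside 10.8% of all genes. Cbs, the first enzyme of transsulfuration, fell from 23 ± 16.65 to 4.38 ± 0.864 CPM in WT (-1.84, adjusted p = 0.0112) and also fell in KO (-2.06, adjusted p = 0.00503). Sfxn1, a mitochondrial serine carrier, fell in WT from 199.8 ± 52.4 to 92.9 ± 21.4 CPM (-1.09, adjusted p = 0.0205) and in KO (-0.87, adjusted p = 0.0445), and Slc25a38, a mitochondrial glycine carrier, fell in WT (-0.56, adjusted p = 0.00588). Asns, asparagine synthetase and an ATF4 target, fell in WT (-1.17, adjusted p = 0.0208), and Vldlr rose in WT (0.96, adjusted p = 0.00658) and KO (0.90, adjusted p = 0.00861). In KO the counts were 2 of 15 serine and glycine genes (1 in each direction), 3 of 15 methionine cycle genes (1 higher, 2 lower) and 3 of 20 ATF4 list genes (2 higher, 1 lower), beside 14.2% of all genes. In KO, Sardh of the folate list, which demethylates sarcosine, rose (1.04, adjusted p = 0.0288), as did Sdsl (1.10, adjusted p = 0.0407), Ahcyl2 (0.95, adjusted p = 0.0294) and the stress factor Atf3 (1.78, adjusted p = 0.0175). Cth, which follows CBS, fell from 17.34 ± 18.77 to 2.82 ± 1.38 CPM (-1.71, adjusted p = 0.0257). Ddit4 fell from 142.1 ± 99.76 to 32.6 ± 10.2 CPM (-1.78, adjusted p = 0.042). The young adipose groups hold the libraries with epididymis transcripts, the Xist libraries and the higher median hepatocyte marker sums. Their part in these list differences was not tested.

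With age in WT muscle, 2 of 13 tested serine and glycine genes and 1 of 11 folate genes were lower, 1 of 14 methionine cycle genes was higher (Mat2b, 0.44, adjusted p = 0.024) and 4 of 17 ATF4 list genes were lower, beside 18.6% of all genes called. Slc1a5, a carrier of serine and glutamine, fell from 37.3 ± 13.4 to 15.8 ± 4.49 CPM in WT (-1.16, adjusted p = 0.00405) and from 47.8 ± 9.699 to 22.3 ± 6.485 CPM in KO (-1.09, adjusted p = 0.0181). Of the ATF4 list, Ddit4 (-3.90, adjusted p = 0.00723) and Cebpb (-1.55, adjusted p = 0.0129) fell in WT. In KO muscle 2 of 13 serine and glycine genes were lower and 1 of 17 ATF4 list genes, Vldlr, was higher (0.72, adjusted p = 0.0352), beside 5.57% of all genes. The other lists had 0 called by limma, edgeR (6.38% of all genes) or DESeq2 (10.8%). At an unadjusted p under 0.05 there were 3 folate genes and 0 methionine cycle genes, beside 3386 of all 13237 genes. In KO liver limma called 0 of 68 tested genes of the 4 lists, edgeR 0 and DESeq2 6. The shares of all genes called were 2.99%, 2.75% and 6.02%. Of the 68, 23 had an unadjusted p under 0.05, beside 2484 of all 12924 genes.

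The genes most like each member were sought over the 64 libraries, after the mean of each tissue was removed, for the 7 members that passed the filter in all 3 tissues, among 11330 genes. Shmt2 was most like Got2, the mitochondrial aspartate aminotransferase (Pearson r = 0.894), and Hdac6, a deacetylase (0.839). Mthfd1l was most like Hdac6 (0.836) and Got2 (0.778). Psph was most like Atg4a (0.802) and Pgap2 (0.772), and Mthfd2 most like Cpn1 (0.734) and Pde8b (0.723). Aldh1l1 was most like Mrpl41, a mitochondrial ribosomal protein (0.836), and Mrap (0.823). Shmt1 was most like Nfs1 (0.678) and Mrpl9 (0.678), and Mthfd1 most like Atp5a1 (0.571) and Ndufs1 (0.557), subunits of oxidative phosphorylation. Within adipose tissue Shmt2 and Mthfd1l had an r of 0.916 over 22 libraries and 0.421 over the 18 without epididymis markers. These points share scaling, and all of these correlations but the one over 18 libraries include the 4 libraries named above. The most alike genes were not sought without those 4.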

How the data were processed

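RNA of 64 libraries was analysed. The values deposited by the authors are a signal per gene whose column headers read CPM and name the CLC software. Per the submitters' processing notes the builds were GRCm38.p6 and mm10, and the aligner settings are not given in the sources used here. The columns do not share the same sum, so these values are not the usual CPM over all genes. They summed to 0.529 to 0.753 times the usual CPM total in adipose tissue, 1.18 to 1.64 times in liver and 1.08 to 1.32 times in muscle. A gene with the same share of reads thus has a lower value in adipose tissue. In WT liver the sums were 1.36 to 1.64 times that total at 5 months and 1.18 to 1.38 times at 20 months. No limma fit used values scaled to reads on genes alone. Values were whole multiples of 1 read for 100% of entries (within 0.1 read), which gave recovered reads. The label protocols name a strand-specific kit.

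Each tissue was fitted with limma 3.58.1 (R 4.3.3) on log2(CPM + 1) with a mean per group and a trended prior, over genes that exceeded 1 CPM in a number of libraries equal to the smallest group or more. Tissues were compared over the 18 young WT libraries (above 1 CPM in at least 6). Benjamini-Hochberg adjustment ran over all tested genes, with calls at an adjusted p under 0.05. edgeR 4.0.16 and DESeq2 1.42.0 on recovered reads, a pseudocount of 0.1, no filter, TMM scaling, sex as a term and left-out libraries were alternatives. The tissue comparisons without W5F5299 and W5S5299 were added after seeing the data. Scripts were tested on simulated data. Members and lists were chosen with earlier results of these data known. Named were Myc, all members and, per list and comparison, up to 2 called genes with the largest rise and 2 with the largest fall among those of at least 5 CPM on average, and, per member, the 2 most alike genes. One gene that the rule names, and the counts it enters in adipose tissue, are not reported here. Limits for 0 reads (3 reads) cover counting error only. Gene names came from the numeric IDs, of which 35336 of 36332 matched a symbol.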

Additional observations from a re-analysis of the deposited data

Results flagged for a closer look

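In 12 of 120 combinations of member and group, 1 library stood apart from the rest of its group by Dixon's 95% criterion, which chance alone gives in about 1 of 20. Of the serine synthesis genes, Phgdh in K5F4285 was at 64.07 CPM against 127 to 156 in the others of young KO adipose tissue. Phgdh in W5L5299 was at 0.954 CPM against 0.176 to 0.365 in the others of young WT liver, a level of 12 reads. Shmt1 in K18F27 was at 4.57 CPM against 2.39 to 2.995 in the others of old KO adipose tissue.

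Shmt2 stood high in K5L5218, at 289.4 CPM against 215 to 242 in the others of young KO liver, and in W5S5042, at 50.91 CPM against 35.9 to 40.8 in the others of young WT muscle. W5S5042 is a Xist library and also had the highest Psat1 of its group. Mthfd2 in K5S4284 was at 18.69 CPM against 4.63 to 6.44 in the others of young KO muscle, and in W18S66 at 16.5 CPM against 8.06 to 9.81 in the others of old WT muscle. Mthfd1l in K18S48 was at 1.677 CPM against 0.215 to 0.5075 in the others of old KO muscle, and in W18S41 at 2.029 CPM against 0.242 to 0.45 in the others of old WT muscle, levels of 27 and 30 reads.

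Aldh1l1 in W18L03 was at 914.5 CPM against 682 to 712 in the others of old WT liver. Aldh1l1 in W18S42 was at 20.48 CPM against 5.5 to 9.27 in the others of old WT muscle, in a library whose hepatocyte markers summed to 3115 CPM, where those of the group had a median of 4.53. The part of these markers in the Aldh1l1 level was not tested. Aldh1l2 in W5F5006 was at 3.165 CPM against 0.426 to 1.398 in the others of young WT adipose tissue.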

How the results depend on the processing

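Of 1233 member values under the other settings, 1205 kept their call, 7 lost it, 21 gained it and 0 reversed as a call. The number of members called changed by more than 1.5 times, or to or from 0, in these cases. Shares in brackets are of all genes under the same setting. DESeq2 called 1 (2.13%) between young KO and WT adipose tissue, where leaving out the Xist libraries gave 1 (3.68%). For age in WT adipose tissue, edgeR, DESeq2 and leaving out the libraries with other-tissue transcripts gave 1, 1 and 1 (11.9%, 18.9% and 24.3%). In KO adipose tissue edgeR gave 1 (15.8%) and DESeq2 3 (23.1%). Leaving out the Xist libraries, sex as a term and leaving out other-tissue libraries gave 1, 1 and 1 there (22.6%, 13.1% and 17.9%). For age in WT liver leaving out the Xist libraries gave 0 (3.2%). In WT muscle edgeR and DESeq2 gave 2 and 2 (18.6% and 23.3%) and TMM scaling 1 (18.1%). In KO muscle leaving out the Xist libraries and sex as a term gave 0 and 0 (1.92% and 1.37%). Smaller changes were 3 in place of 2 for age in WT liver with no filter (3.12%), which adds Aldh1l2, and 9 in place of 8 between adipose tissue and liver without the Xist libraries (64.6%). Between adipose tissue and muscle, in place of 7, edgeR, DESeq2 and TMM scaling gave 8 (69.4%, 70.9% and 69%). No filter and leaving out other-tissue libraries gave 6 there (48% and 66.4%). Between liver and muscle no filter gave 8 in place of 9 (47.7%). The cause of these changes was not tested.

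Leaving out 1 library at a time gave 0 to 1 members called for age in WT adipose tissue, 1 to 2 in WT liver, 0 to 3 in WT muscle and 0 to 1 in KO muscle. The tissue comparisons gave 8 to 9, 6 to 8 and 8 to 9, and the others 0. The 3 called in WT muscle came without W5S5277. Shares of all genes called in these left-out fits are not given here, so the counts cannot be set against them. With all libraries the age comparisons called 10.8% of all genes in WT adipose tissue and 7.19% in WT liver. In muscle they called 18.6% in WT and 5.57% in KO. Low depth per gene limits Phgdh, Psat1 and Aldh1l2 in liver and Mthfd1l in muscle.

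Animal codes recur across tissues but the labels do not say that a code is 1 animal. With the code as a replicate block, the tissue comparisons called 8, 7 and 9 members, the same numbers as without it. Deviations of 14 same-code pairs had correlations of -0.074 to 0.315, 11 of them over 0.1. Those of 94 pairs with different codes ran from -0.279 to 0.265, with a median of -0.0475. The correlation used for the block was 0.13. Within a tissue each code occurs once, so no paired fit of genotype or age was possible.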
